A study of Homo sapiens with 4 samples.

Results

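The proteasome genes of hypoxic PLC/PRF/5 cells are described here. They are the genes whose symbol starts with PSMA to PSMG and a digit, and they numbered 45 of the 12153 genes in the deposited count table. The 45 genes had 59 rows, because counts were given per RefSeq mRNA accession, and each gene was represented by its row with the highest summed count. PLC/PRF/5 is a human hepatocellular carcinoma line, grown in high-glucose DMEM. The study compared 2 control libraries with 2 libraries of cells in which USP22 was knocked down through a lentivirus. All 4 libraries came from hypoxic culture (48 h, 1% oxygen, 5% carbon dioxide), which both groups thus shared, and no normoxic sample was analysed here. A single cell line was used, and the labels name neither the hairpin sequence nor separate cultures behind the replicates, so the p-values measure only the spread between these libraries, which may be technical.

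The proteasome degrades proteins that carry ubiquitin chains. Its 20S core is a barrel of outer rings of α subunits (PSMA genes) and inner rings of β subunits (PSMB genes), and the β subunits encoded by PSMB5, PSMB6 and PSMB7 carry the proteolytic sites. The 19S regulatory particle caps the barrel: its ATPases (PSMC genes) unfold substrates and its non-ATPase subunits (most PSMD genes) bind and remove ubiquitin. In the immunoproteasome, which interferons induce and immune cells carry constitutively, PSMB8, PSMB9 and PSMB10 take the places of PSMB5, PSMB6 and PSMB7, which changes the peptides made for presentation on MHC class I. Other members of the family activate the barrel (PSME genes), inhibit it (PSMF1) or chaperone its assembly (PSMG genes, PSMD5, PSMD9 and PSMD10). USP22 is a ubiquitin-specific protease of the SAGA coactivator complex, and it acts on ubiquitin on histones and other proteins, not as a proteasome subunit.

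The libraries held between 15027209 and 17194929 counts, and the 45 member rows took 0.526% and 0.547% of the control totals and 0.606% and 0.658% of the knockdown totals. USP22 itself fell in the knockdown, from 2937 and 2573 CPM (counts scaled to a common library size after TMM normalization) to 360 and 447 CPM, a log2 fold change of −2.77 ± 0.17 (SE, edgeR quasi-likelihood test, adjusted p = 1.36e-06). All 8 hepatocyte lineage markers had a row. APOB, AFP and KRT18 rose, as did 8.49% of all tested rows, and 5 were not called. Of these, ALB, APOA1, SERPINA1 and TF had fitted changes between −0.18 and −0.10. KRT8 had 0.55 ± 0.19 (adjusted p = 0.067), with both knockdown libraries above both controls. Of the endothelial markers PECAM1 rose (1.02, adjusted p = 0.0185), while CDH5 was lower without being called (−0.73 ± 0.67, adjusted p = 0.505). VWF, with 7, 9, 0 and 2 counts, was not tested. Rows of members with more RefSeq mRNA accessions held fewer counts in the median, with ranges that overlapped. The median total over the 4 libraries was 16837 counts for the 15 members with 1 accession, 1280 for the 15 with 2 and 122 for the 15 with 3 or more. For the multi-accession members a value is that of a single accession and not of the gene. RefSeq names pseudogenes after 20 of the 45 members, and the bounds of 18 members overlap those of another gene. Reads from bases in the transcripts of both genes cannot be told apart in libraries that do not mark strand. Whether their exons overlap was not examined.

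Between knockdown and control, 2 proteasome genes changed, and both rose. They were PSMD3, a non-ATPase subunit of the 19S particle, and PSMA2, an α subunit of the 20S core. Of the 45 members 42 passed the filter on low counts, and 2 of the 42 rose (4.76%), 0 fell and 40 did not pass the threshold of an adjusted p under 0.05 (edgeR quasi-likelihood test). Over all 12337 tested rows 8.49% rose and 10.2% fell, so the members' shares of calls lay below that background in both directions. Among the 15 members with 1 accession, the same 2 rose (13.3%) and 0 fell, against 11.8% and 16.3% of the 4456 tested genes with 1 accession. An unadjusted p under 0.05 was reached by 5 members (11.9%), against 31.6% of all tested rows, and PSMB9 was the only one of the 5 on the lower side. At the adjusted threshold DESeq2 and limma-voom each called 2 higher and 0 lower. The fitted changes leaned to one side all the same. The log2 fold change was above 0 in 32 of the 42 (76.2%), against 50% of all tested rows, and its median was 0.30 against 0.00. Both knockdown libraries lay above both control libraries for 23 members (54.8%) and below them for 4 (9.52%). Of all tested rows 59.6% had groups that did not overlap, 29.3% with the knockdown higher and 30.3% with it lower. The number of members that rose depended on single libraries. It was 0 without control replicate 1, 1 without control replicate 2 and 7 without knockdown replicate 1, and the median was 0.19 without control replicate 1. Sizes depended on them too: for 29 of the 42 members, leaving out some single library moved the fitted change by over 1.5 times or turned its sign.

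**Figure D1:**
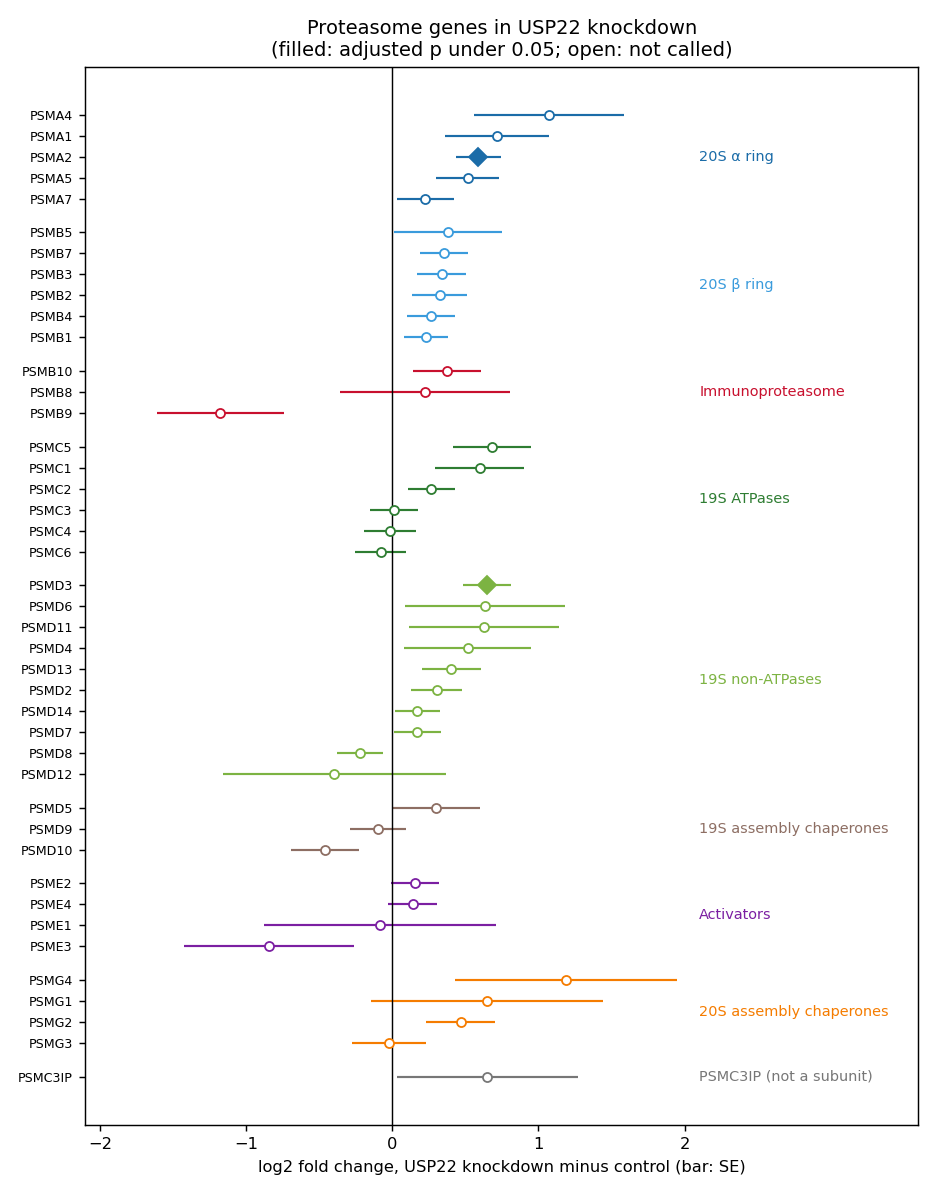
Fitted log2 fold change (knockdown minus control, x axis) of the 42 tested members, grouped by role, with bars of 1 SE; filled diamonds mark an adjusted p under 0.05. PSMA2 and PSMD3 are the filled points, all 11 tested constitutive 20S subunits lie to the right of 0, and PSMB9 lies farthest to the left.

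PSMD3 had 414 and 476 CPM in the control libraries and 632 and 766 CPM in the knockdown libraries. The lowest knockdown library thus lay above the highest control library. The log2 fold change was 0.65 ± 0.16 (95% interval 0.30 to 1.00, adjusted p = 0.0139), a 1.57-fold rise. Without control replicate 1 the call was lost (0.56, adjusted p = 0.134). PSMD3 has 1 RefSeq mRNA accession (NM_002809.3), and a lncRNA gene, LOC124904000, overlaps it.

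PSMA2 had 207 and 211 CPM in the control libraries and 314 and 315 CPM in the knockdown libraries. The replicates of either group nearly coincided, and the groups were far apart. The log2 fold change was 0.59 ± 0.16 (95% interval 0.25 to 0.92, adjusted p = 0.0183), a 1.5-fold rise. The size was stable to the loss of a library, at 0.58 without control replicate 1 and 0.62 without control replicate 2, but the test no longer passed there (adjusted p = 0.138 and 0.0975). PSMA2 also has 1 accession (NM_002787.4), and RefSeq names 3 pseudogenes after it, whose reads could be confused with its own. A further locus, LOC105375252, overlaps it.

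The sequence before the start site is shown for PSMD3 and PSMA2 because they are the members that rose. Sequences are those of RefSeq on GRCh38.p14, which is not the hg19 build of the counts. They run 5′ to 3′ on the gene's strand, and capitals mark every match, on either strand, to 5 motifs. The motifs were TGANNNNGC (core of the antioxidant response element, bound by NRF1 and NRF2 with small MAF proteins), CCAAT (bound by NF-Y), the interferon-stimulated response element (GAAA, 2 bases of any kind, GAAA), TTCNNNGAA (gamma-activated site) and an NF-kB site (GGG, 2 bases of any kind, TTTCC). For PSMD3 the 250 bases at chr17:39980557-39980806 (plus strand) are given. For PSMA2 the window is the 201 bases at chr7:42932175-42932375 (minus strand) that separate it from the divergent gene MRPL32.
PSMD3: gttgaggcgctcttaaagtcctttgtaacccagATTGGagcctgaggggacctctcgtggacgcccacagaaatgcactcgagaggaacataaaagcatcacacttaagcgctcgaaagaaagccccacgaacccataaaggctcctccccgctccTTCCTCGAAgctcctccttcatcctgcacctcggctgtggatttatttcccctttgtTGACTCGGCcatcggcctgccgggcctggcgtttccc
PSMA2: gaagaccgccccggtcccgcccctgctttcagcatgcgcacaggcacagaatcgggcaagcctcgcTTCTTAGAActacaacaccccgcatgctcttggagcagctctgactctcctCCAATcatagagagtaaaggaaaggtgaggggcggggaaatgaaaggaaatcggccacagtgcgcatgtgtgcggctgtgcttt
PSMD3 held a match to TGANNNNGC from position −37, counted back from the base just before the start as −1, a CCAAT box on the other strand and a TTCNNNGAA. PSMA2 held a CCAAT box from position −84 and a TTCNNNGAA. None of the matches overlapped. RefSeq windows were found for 39 of the 45 members, 49 windows in all. A match to TGANNNNGC stood in 26 of the 49 (53.1%), against 35.2% of all 35116 windows of the same 250 bases, and CCAAT in 19 (38.8%) against 32%. Such matches are descriptions of the letters only.

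The fitted changes of the constitutive 20S core all lay on the same side of 0. Its 13 members in the table included 11 that were tested. All 11 had a log2 fold change above 0, between 0.23 and 1.07, with a median of 0.36. In 9 of them (81.8%) both knockdown libraries lay above both controls, against 29.3% of all tested rows. Only PSMA2 passed the test. The 2 that were not tested were PSMA6, with 10, 0, 5 and 4 counts, and PSMB6, with 4, 12, 7 and 2. PSMA3, PSMA8 and PSMB11 were not analysed here.

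Among the α subunits, which gate the barrel, the largest fitted change was that of PSMA4, but its row held 19, 24, 39 and 53 counts and the difference did not pass (1.07 ± 0.51, adjusted p = 0.171). PSMA7 had the smallest fitted change of the α subunits. It had 433 and 545 CPM in control and 467 and 678 CPM in knockdown libraries. The groups overlapped and the change was 0.23 ± 0.19 (adjusted p = 0.464). It rested on knockdown replicate 2, without which it was −0.06, while without knockdown replicate 1 it was 0.51 and passed (adjusted p = 0.0142). PSMA5, with 30.6 and 26.8 CPM in control and 37.4 and 44.8 CPM in knockdown libraries, came to 0.52 ± 0.21 (adjusted p = 0.116). PSMA1 had 6.95 and 4.02 CPM in control and 10.4 and 7.63 CPM in knockdown libraries (0.71 ± 0.36, adjusted p = 0.189). In both rows, the knockdown libraries were the higher without passing. The other row of PSMA1, with 93, 91, 125 and 77 counts, overlapped between the groups (0.14 ± 0.37). Without knockdown replicate 1 PSMA5 passed (0.68, adjusted p = 0.0433), while PSMA1 ranged from 0.39 to 1.17 with a control library left out.

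The β subunits of the core had fitted changes in a narrow range, from 0.23 ± 0.15 for PSMB1 to 0.38 ± 0.37 for PSMB5, and none of the 6 passed. PSMB1, a structural β subunit, had 359 and 361 CPM in control and 414 and 432 CPM in knockdown libraries (95% interval −0.09 to 0.56, adjusted p = 0.322). PSMB4, also structural, had 529 and 574 CPM in control and 583 and 742 CPM in knockdown libraries (0.26 ± 0.16, adjusted p = 0.295). For both genes the knockdown libraries were the higher, by less than the test required. PSMB7, the trypsin-like catalytic subunit, had 177 and 202 CPM in control and 226 and 259 CPM in knockdown libraries. Its change was 0.36 ± 0.17, with a 95% interval from −0.002 to 0.71 (adjusted p = 0.161). PSMB4 and PSMB7 passed without knockdown replicate 1 (0.47 and 0.49, adjusted p = 0.0254 and 0.045). PSMB5, the chymotrypsin-like catalytic subunit, was represented by a row of 56, 80, 72 and 108 counts whose groups overlapped (adjusted p = 0.531), so little can be read from it. The structural subunits PSMB2 (0.32 ± 0.19) and PSMB3 (0.34 ± 0.17) lay between, each with both knockdown libraries above both controls.

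**Figure D2:**
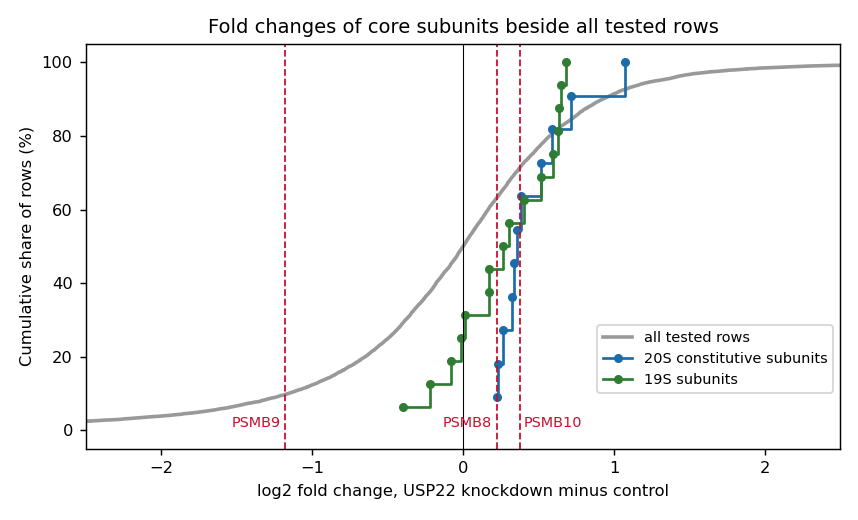
Cumulative share (y axis, percent) of the fitted log2 fold changes (x axis) of all 12337 tested rows, the 11 tested constitutive 20S subunits and the 16 subunits of the 19S particle; dashed lines mark the immunoproteasome subunits. The 20S curve starts above 0, the 19S curve crosses 0, and PSMB9 stands to the left of both.

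The 19S particle was more mixed than the core. All 16 of its subunits in the table were tested, of which 12 had a log2 fold change above 0 and 4 below, with a median of 0.29. Only PSMD3 passed. The median of all 16 was 0.14 without control replicate 1 and 0.44 without control replicate 2. Of the 16, 11 had a mean of at least 10 CPM over the 4 libraries. Their median was 0.17, with 8 above 0 and 3 below. The 8 constitutive 20S subunits at that level all lay above 0, with a median of 0.33. PSMD1, a further non-ATPase subunit, was not analysed here. That the 20S and 19S groups differ from each other was not tested.

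The ATPases, which form the unfolding ring, fell into those near 0 and those above it. PSMC3 had 231 and 226 CPM in control and 210 and 251 CPM in knockdown libraries, a change of 0.01 ± 0.16 with a 95% interval from −0.34 to 0.37. PSMC6 had 128 and 137 CPM in control and 137 and 113 CPM in knockdown libraries (−0.08 ± 0.17), and PSMC4 was as close to 0 (−0.01 ± 0.18). The sign of all 3 turned when a library was left out. PSMC5 had the largest fitted change of the ATPases. Its row had 10.7 and 13.6 CPM in control and 17.0 and 22.1 CPM in knockdown libraries. The groups did not overlap, but the difference did not pass (0.68 ± 0.27, adjusted p = 0.0963), and without knockdown replicate 1 it was 0.90 (adjusted p = 0.0272). PSMC1 (0.60 ± 0.31) and PSMC2 (0.27 ± 0.16) were also higher in both knockdown libraries than in either control, and did not pass.

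The non-ATPase subunits held both PSMD3, which rose, and PSMD8 on the other side of 0. PSMD8, a lid subunit named here only once its values were known, had 514 and 566 CPM in control and 439 and 488 CPM in knockdown libraries. Both knockdown libraries lay below both controls, and the change of −0.22 ± 0.15 did not pass (95% interval −0.55 to 0.11, adjusted p = 0.361). The ratio of PSMD3 to PSMD8 in CPM, not scaled to length, was 0.806 and 0.841 in control cells and 1.44 and 1.57 in knockdown cells. This pair was picked with PSMD3 known to be higher and PSMD8 lower in both knockdown libraries, so the ratio had to differ. It was not tested. PSMD14, the deubiquitinase of the lid, had 372 and 396 CPM in control and 430 and 435 CPM in knockdown libraries (0.17 ± 0.15, adjusted p = 0.485). PSMD2, which docks ubiquitin receptors, had 176 and 221 CPM in control and 228 and 262 CPM in knockdown libraries (0.31 ± 0.17, adjusted p = 0.25). Of the rows that represent these members, that of PSMD12 had the lowest fitted change (−0.40 ± 0.76). It held 9, 30, 11 and 19 counts, and the change turned to 0.71 without control replicate 2. Of the other non-ATPase subunits PSMD13 had 34.7 and 42.0 CPM in control and 50.7 and 50.8 CPM in knockdown libraries (0.40 ± 0.20, adjusted p = 0.187), and PSMD7 had 0.17 ± 0.16. The other row of PSMD13, with 66, 29, 30 and 20 counts, lay on the other side of 0 (−0.92 ± 0.56), with groups that overlapped. With rows summed per gene the change of PSMD13 was 0.35. PSMD4, PSMD6 and PSMD11, with at most 69 counts in any library, had fitted changes of 0.52 to 0.63 and did not pass. With a control library left out they ranged from 0.13 to 1.07, from 0.13 to 1.46 and from 0.15 to 1.37.

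**Figure D3:**
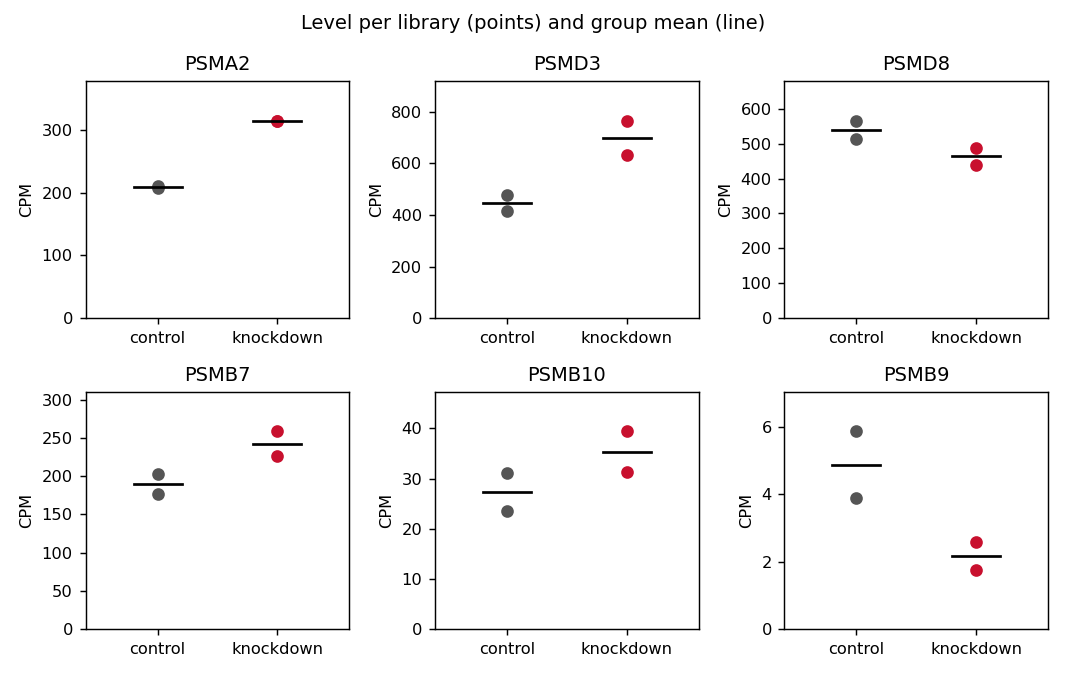
CPM of 6 members (y axes, each starting at 0) in the 2 control libraries (grey) and the 2 knockdown libraries (red), with the group mean as a line. PSMA2 and PSMD3 rose; PSMD8, PSMB7, PSMB10 and PSMB9 did not pass the test, although in each of them the groups do not overlap.

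The immunoproteasome subunits had fitted changes on both sides of 0, and none passed. PSMB9, which replaces PSMB6, had 93 and 63 counts in control cells against 39 and 30 in knockdown cells, or 5.87 and 3.90 CPM against 2.58 and 1.75 CPM. Both knockdown libraries lay below both controls. The log2 fold change was −1.18 ± 0.43, the lowest of all 42 tested members, with a 95% interval from −2.11 to −0.24. Its unadjusted p was 0.0177 and, by edgeR's quasi-likelihood test with Benjamini-Hochberg adjustment, its adjusted p was 0.0784. Without control replicate 2 it passed (−1.43, adjusted p = 0.0387). Without control replicate 1 it was −0.85 (adjusted p = 0.353). Over 11 alternatives the adjusted p ranged from 0.033 to 0.353.

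PSMB10, which replaces PSMB7, had 23.6 and 31.0 CPM in control and 31.3 and 39.4 CPM in knockdown libraries. Its change of 0.37 ± 0.23 (95% interval −0.13 to 0.88, adjusted p = 0.295) was close in size to that of PSMB7, the subunit whose place it takes. It was 0.19 without control replicate 1 and 0.61 without control replicate 2. PSMB10 had 13.3 and 15.4 counts per 100 counts of PSMB7 in control and 13.9 and 15.2 in knockdown libraries, ranges that overlap. PSMB9 per 100 counts of PSMB10 was 24.9 and 12.5 in control and 8.23 and 4.43 in knockdown libraries, ranges that do not. PSMB9 was lower and PSMB10 higher in both knockdown libraries, so their ratio had to separate and adds nothing to the separate levels. These ratios were not tested; with 2 libraries against 2 an exact permutation test cannot give a two-sided p below 0.333. PSMB8, which replaces PSMB5, had rows of few counts. Its larger row held 25, 25, 36 and 22 counts (0.22 ± 0.58, adjusted p = 0.84), and the sign turned without knockdown replicate 1 (−0.25). An antisense gene, PSMB8-AS1, overlaps it.

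PSMB9 lies in the MHC class II region beside TAP1, which encodes part of the peptide transporter. The genes point away from each other, with 487 bases between them on GRCh38.p14. The 250 bases before PSMB9 at chr6:32853942-32854191 (plus strand) are shown because they lie in this shared stretch, with capitals as above.
PSMB9: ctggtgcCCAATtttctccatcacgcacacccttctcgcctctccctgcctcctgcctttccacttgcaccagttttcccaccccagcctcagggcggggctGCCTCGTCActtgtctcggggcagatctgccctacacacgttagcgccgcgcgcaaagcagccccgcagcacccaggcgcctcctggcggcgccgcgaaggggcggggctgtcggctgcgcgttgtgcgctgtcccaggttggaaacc
The window held a CCAAT box and a TGANNNNGC on the other strand from position −148. The interferon-stimulated response element, TTCNNNGAA and the NF-kB site were not among these letters. They stood in 3.02%, 6.57% and 1.73% of all windows, and in 5, 6 and 1 of the 49 member windows. Only 250 of the 487 bases between TAP1 and PSMB9 were searched, and only for the motifs as spelled above.

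TAP1 fell, from 32.8 and 24.1 CPM in control to 16.5 and 17.5 CPM in knockdown libraries. Its log2 fold change of −0.74 ± 0.24 passed narrowly (adjusted p = 0.0499) and failed under 8 of 12 alternatives, among them the fit without control replicate 1 (−0.50, adjusted p = 0.397). Leaving out a knockdown library also ended the call, though the change was about as large, at −0.67 without replicate 1 (adjusted p = 0.0992) and −0.77 without replicate 2 (adjusted p = 0.0547). IRF1, a transcription factor that interferon induces, fell from 92.7 and 80.8 CPM to 28.0 and 33.1 CPM (−1.50 ± 0.20, adjusted p = 0.000246), and it passed under all 12 alternatives that were run. Of the 11 listed genes of peptide loading and interferon signalling 9 were tested, of which TAP1 and IRF1 fell, 0 rose and 7 were not called. Their median log2 fold change was −0.40. B2M, the light chain of MHC class I, had −0.40 ± 0.17 (adjusted p = 0.12). Because immune cells carry the immunoproteasome, leukocyte markers were read beside PSMB9. Rows were present for 3 of 9 (CD3D, CD68 and LYZ), none passed, and their summed level was 307 and 362 CPM in control and 384 and 222 CPM in knockdown libraries. Most of that sum was LYZ, whose groups overlapped. CD3D had 20 and 26 counts in control cells against 0 and 7 in knockdown cells (−2.72 ± 1.02, adjusted p = 0.0819). CD68 had −0.35 ± 0.22 (adjusted p = 0.289), also with both knockdown libraries below both controls, as for PSMB9. The same held for 30.3% of all tested rows. The defining marker PTPRC was not analysed here, and the part of such cells in the PSMB9 values was not tested.

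The activators, the inhibitor and the chaperones gave no call. PSME2, a subunit of the interferon-induced PA28 cap, had 193 and 172 CPM in control and 211 and 196 CPM in knockdown libraries (0.16 ± 0.16, 95% interval −0.19 to 0.51). PSME4, the PA200 activator, had 502 and 491 CPM in control and 619 and 473 CPM in knockdown libraries, which overlapped (0.14 ± 0.17). The row of PSME3, a nuclear activator, had the lowest fitted change of the activators. It held 54 and 24 counts in control cells against 20 and 24 in knockdown cells (−0.84 ± 0.58, adjusted p = 0.351). Without control replicate 1 it was −0.12, and PSME1, at −0.30, was then the lower. Another row of PSME3, with 43, 22, 8 and 11 counts, had −1.78 ± 0.69 (adjusted p = 0.092, edgeR quasi-likelihood test). Both its knockdown libraries lay below both controls, without passing. A further row, with 0, 8, 5 and 11 counts, was not tested. With rows summed per gene the change of PSME3 was −0.94. PSME1, the partner of PSME2, had a row of 9 to 13 counts per library. The inhibitor PSMF1 was not tested, with 3, 2, 8 and 2 counts.

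Of the chaperones of 19S assembly, PSMD10 (gankyrin, also known as an oncoprotein of liver cancer) had 43.1 and 30.9 CPM in control and 28.6 and 25.0 CPM in knockdown libraries. The knockdown libraries were the lower, and the change of −0.46 ± 0.23 did not pass (95% interval −0.96 to 0.04, adjusted p = 0.192). It was −0.20 without control replicate 1 and −0.66 without control replicate 2. PSMD5 had 9.79 and 8.78 CPM in control and 13.4 and 9.49 CPM in knockdown libraries (0.30 ± 0.30), and PSMD9 had −0.10 ± 0.19. The groups overlapped for both. Of the chaperones of 20S assembly, PSMG2 had 16.5 and 16.9 CPM in control and 24.3 and 22.0 CPM in knockdown libraries (0.47 ± 0.24, adjusted p = 0.192). Its other row, with 83, 40, 34 and 48 counts, lay on the other side of 0 (−0.61 ± 0.47), with groups that overlapped. With rows summed per gene the change of PSMG2 was 0.33. PSMG3 had 40.8 and 33.2 CPM in control and 27.5 and 45.4 CPM in knockdown libraries. Its knockdown libraries lay on both sides of the controls (−0.02 ± 0.25). PSMG4 had the largest fitted change of the rows that represent the members (1.19 ± 0.76, adjusted p = 0.309), on a row of 9, 8, 23 and 16 counts. Its other row, of 15, 7, 8 and 10 counts, was not tested. With rows summed per gene the change of PSMG4 was 0.55. PSMG1, with 5 to 30 counts, had 0.65 ± 0.79. PSMC3IP matches the naming rule but encodes a recombination cofactor and not a subunit, and it did not pass either (0.65 ± 0.62).

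Levels were compared between genes only for the 15 members with 1 accession, as CPM per kb of transcript. In control cells PSMB4 was the highest, at 572 ± 32.8 (SD, n = 2), followed by PSMA7 (491 ± 79.7), PSMB1 (388 ± 1.82) and PSMD8 (351 ± 24.1). The control libraries of PSMB4 and PSMA7 came close to each other, at 549 and 435 for their lower and 595 and 547 for their higher libraries. PSMD3, PSMD14 and PSMB7 followed between 206 and 193, and their control libraries overlapped. PSMC3, PSMA2, PSMB3, PSME2 and PSMD7 lay between 145 and 117, of which PSMB3 and PSME2, and PSME2 and PSMD7, overlapped. The large PSME4 mRNA had 69.9 ± 1.08. The immunoproteasome subunits were the lowest of the 15. PSMB10 had 22.4 ± 4.35, which put PSMB7 8.63 times higher, and PSMB9 had 6.25 ± 1.79. In knockdown cells PSMB4 (687 ± 117), PSMA7 (575 ± 150) and PSMB1 (456 ± 13.6) were again the first 3, PSMD3 (324 ± 44.1) stood above PSMD8 (301 ± 22.6), and PSMB10 (29.05 ± 4.69) and PSMB9 (2.77 ± 0.752) were again the lowest.

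**Figure D4:**
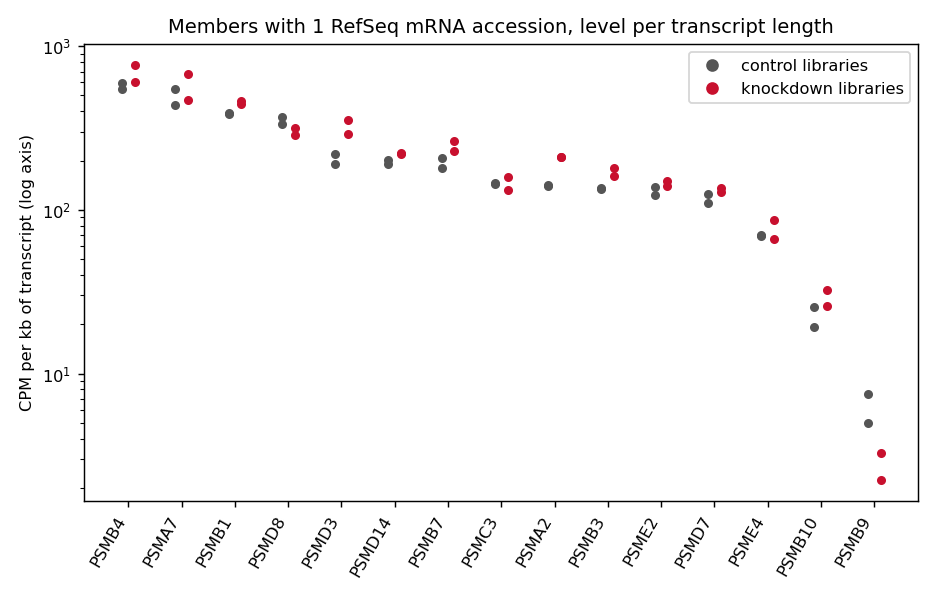
CPM per kb of transcript (y axis, log scale) of the 15 members with 1 RefSeq mRNA accession, ordered by their control mean, in the control (grey) and knockdown (red) libraries. The core and 19S subunits lie above 100 in every library, PSMB10 between 19.3 and 32.4, and PSMB9 between 2.23 and 7.51.

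Summed over its 13 rows, the constitutive 20S core came to 1910 and 2110 CPM in the control libraries and 2266 and 2709 CPM in the knockdown libraries. The 16 rows of the 19S particle came to 2372 and 2630 CPM in control and 2737 and 2993 CPM in knockdown libraries. Both sums were higher in each knockdown library than in either control, 1.24-fold and 1.15-fold in the mean. The ratio of the 20S to the 19S sum was 0.805 and 0.802 in control and 0.828 and 0.905 in knockdown libraries, so most of its difference came from knockdown replicate 2. Each gene entered these sums with 1 row, not scaled to length, so rows with many counts dominate. In the control mean PSMB4, PSMA7 and PSMB1 had 552, 489 and 360 CPM, against 0.32 for PSMA6 and 0.50 for PSMB6. PSMA3 and PSMD1 are among the subunits left out. The ratio thus does not give the level of core to cap. The summed immunoproteasome rows, 31.0 and 36.5 CPM in control and 36.3 and 42.5 CPM in knockdown libraries, overlapped between the groups. PSMB10 held 27.3 of the 33.7 CPM of their control mean. Relative to the control mean, the median member stood at 0.23 in knockdown replicate 1 and 0.36 in knockdown replicate 2 on the log2 scale, and at −0.05 and 0.05 in the controls.

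Among genes that work with the proteasome but fall outside the naming rule, KIAA0368 and FAF1 rose, and MAFK, IRF1 and TAP1 fell. They are the 2 and the 3 called genes of 37 tested, out of 44 on 5 lists, where 8.49% of all tested rows rose and 10.2% fell. Of 8 tested proteasome-associated genes 1 rose, KIAA0368 (now named ECPAS), an adaptor and scaffold of the 26S proteasome. It had 264 and 317 CPM in control and 460 and 432 CPM in knockdown libraries (0.62 ± 0.16, adjusted p = 0.0178), a call lost without control replicate 1 (0.49, adjusted p = 0.214). POMP, the maturation factor of the 20S core, had −0.07 ± 0.17 and the deubiquitinase USP14 0.06 ± 0.21. Of 8 tested shuttles and unfoldase genes 1 rose, FAF1, a cofactor of the unfoldase VCP, from 77.0 and 58.6 CPM to 135 and 133 CPM (0.98 ± 0.19, adjusted p = 0.0029). VCP itself had 0.36 ± 0.16 (adjusted p = 0.132). None of the 6 ubiquitin and E1 genes passed, with a median of 0.01.

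Of the 6 tested regulators of proteasome genes 1 fell. This was MAFK, a small MAF protein that pairs with NRF1 and NRF2 on the antioxidant response element, which fell from 888 and 1009 CPM in control to 392 and 290 CPM in knockdown libraries (−1.47 ± 0.18, adjusted p = 0.000126). Both knockdown libraries lay far below the controls, and the call held under all 12 alternatives that were run. MAFG (1.07 ± 0.47) and MAFF (−2.42 ± 0.96) did not pass. NFE2L1 and NFE2L2, which encode NRF1 and NRF2, were not analysed here.

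A q-value under 0.05 was given to 5 of the 42 tested members in the authors' deposited table, against 25.4% of all tested rows. PSMA2 (log2 fold change 0.61, q = 5.76e-06) and PSMD3 (0.67, q = 1.90e-05) were among them, together with PSMA5 (0.54, q = 0.0352), PSMC5 (0.70, q = 0.0372) and PSMB7 (0.37, q = 0.0396) in the authors' deposited table. All 5 have a fold change above 0 there. PSMB9 has −1.16 and a q-value of 0.0526 in the authors' deposited table, just outside that threshold.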

How the data were processed

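The authors deposited raw counts per RefSeq mRNA accession for 4 libraries, and beside them, per the file headers, a p-value, a q-value and a log2 fold change of their own. Tools named in the submitters' processing notes are bcl2fastq, HTSeq and HISAT2 2.1.0, on hg19. The sources used here do not give how reads shared by isoforms were counted. Per the labels' protocols the kit was NEBNext Ultra RNA, on isolated mRNA. The table has 14540 rows. Groups and replicate numbers came from the sample titles.

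Rows kept by edgeR 4.0.16 filterByExpr (minimum count 10), 12337 in number, were TMM-normalized and tested with glmQLFit and glmQLFTest in R 4.3.3, with no covariate. P-values were Benjamini-Hochberg adjusted over all tested rows, at a threshold of 0.05. The SE is the log2 fold change over the square root of F. The common biological coefficient of variation was 22.1%. CPM are scaled to the normalized library size. Replicates differed by more than counting noise (chi-square per degree of freedom 19.4 in control, 36.8 in knockdown). Alternatives were DESeq2 1.42.0, limma-voom (limma 3.58.1), DESeq2 size factors, other filters, a replicate block, libraries left out, rows summed per gene, and a threshold of 0.01. The fit was tested on simulated data. Transcript lengths came from GENCODE v29 (43 of 45 members); accessions, gene bounds and sequences from RefSeq GRCh38.p14.

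Members and lists were chosen with earlier results of these data known. Of the listed genes, 1 is not reported here by name. Full values were given for members past the threshold, for PSMB5 to PSMB10, and for the largest and smallest change of each subcomplex; other named members were chosen after their values were seen.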

Additional observations from a re-analysis of the deposited data

How the results depend on the processing

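The number of rows called over the table was 3531 with the replicate block and 1119 at a threshold of 0.01, against 2304. Members that rose numbered 5 with the replicate block, 0 at 0.01 and 0 to 7 with a library left out, against 2; members that fell numbered 1 with the replicate block and 0 to 1 with a library left out, against 0. The block used the replicate numbers of the titles, which nothing ties to shared cultures. Deviations of same-numbered libraries correlated with r = 0.136 across rows, over 2 pairs only. Under the block PSMA5, PSMB7 and PSMC5 passed as well, and so did PSMB9 (adjusted p = 0.033). With a library left out, the median log2 fold change ranged from 0.19 to 0.40 for all tested members, from 0.14 to 0.44 for the 19S subunits and from −0.25 to 0.22 for the immunoproteasome; that of the 20S core stayed between 0.27 and 0.51. Of 491 alternative values of single members, 456 kept their sign and side of the threshold. The sign turned under some alternative for 11 members. PSMC3 was −0.003 under the filter of 5 CPM. PSMC4 was 0.0016 with DESeq2 size factors and with DESeq2, and 0.0002 with no filter and with rows summed per gene. PSMG3 was 0.038 with rows summed per gene. With a library left out the ranges were −0.0576 to 0.51 for PSMA7, −0.25 to 0.61 for PSMB8, −0.11 to 0.17 for PSMC3, −0.0891 to 0.10 for PSMC4, −0.18 to 0.0599 for PSMC6, −0.9999 to 0.71 for PSMD12, −0.24 to 0.0768 for PSMD9, −0.30 to 0.21 for PSME1, −0.0298 to 0.33 for PSME4, −0.0775 to 2.24 for PSMG1 and −0.42 to 0.33 for PSMG3. The cause was not tested. Fits without a library leave 1 library in an arm, which is assumed to vary like the other group. Low counts limit the rows of most members with 3 or more accessions, whose median total was 122.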
